A study of Mus musculus with 9 samples.

Results

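The nuclear genes for the mitochondrial respiratory chain and its ATP synthase were followed across 9 mouse RNA-seq libraries. Members were chosen by gene symbol alone, as every row whose name begins with Ndufa, Ndufb, Ndufc, Ndufs, Ndufv, Cox4 to Cox8, Uqcr or Atp5, or is Sdha, Sdhb, Sdhc or Sdhd, leaving out 1 pseudogene row. This gave 91 of the 37975 rows in the table: 38 complex I subunits, 4 complex I assembly factors (the Ndufaf genes), 4 complex II genes, 8 complex III genes, 19 complex IV genes and 18 complex V genes. Of these, 88 reached 1 FPKM in at least 1 library and entered the comparisons. Among the 88, Cox8b alone did so in a single library, at 21 h. The other 3, Cox6a2, Cox8c and Atp5l2, stayed below 1 FPKM in every library and were not tested.

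The symbol rule takes in a few genes that are not subunits of the named complex. Cox4nb lies next to Cox4i1 and encodes a subunit of a membrane protein complex of the endoplasmic reticulum, and Atp5s and Atp5sl are not core parts of the ATP synthase. Ndufa4 was named as a complex I subunit and is now placed with complex IV. They were kept under the complex their symbol gives.

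The respiratory chain passes electrons from NADH (complex I) or succinate (complex II) through complex III to oxygen at complex IV, and complexes I, III and IV pump protons across the inner mitochondrial membrane. Complex V, the ATP synthase, lets the protons back through its membrane ring of c subunits and makes ATP in its F1 head. Most subunits are nuclear-encoded and imported, while a few hydrophobic ones come from the mitochondrial genome. Several complex IV subunits exist as a usual isoform and an alternative one that is known from muscle, lung or testis or from low oxygen.

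The study forced Sox17, a transcription factor of the endoderm, in embryonic stem cells (ESC), and compared the cells with XEN cells, the self-renewing cells of the extraembryonic endoderm. Each of the 9 groups is 1 library. The wild-type groups are the ESC line R1 and the XEN line IM8AR, neither given doxycycline (dox). The other 7 libraries carry dox-driven Sox17 overexpression: a Sox17-ESC culture with no dox, Sox17-ESC with dox at 100 ng/ml for 7, 21, 35 and 49 hours and 6 days, and a converted line called Sox17-XEN. The label of the day 6 library holds the word SORT, with the sort not described. The Sox17-XEN label gives 30 days with dox and 30 days without dox, and its wording leaves the order unclear. Its sample description reads dox-indep. The promoter and the integration site of the transgene, and whether the Sox17 line is 1 clone, are not given in the sources used here. Fibroblasts of the mouse embryo served as feeders for the ESC, in serum with LIF, and gave the conditioned medium in which XEN cells were kept with serum.

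Sox17 itself, in FPKM, was 0.16 in R1 ESC and 0.91 without dox. It was between 71.1 and 283 FPKM in the 5 dox libraries, at 101 FPKM in Sox17-XEN and at 239 FPKM in wild-type XEN. Gata4 was below 1 FPKM in both ESC libraries and between 303 and 659.6 FPKM at day 6 and in both XEN lines, and Pou5f1 was at 2.54 and 3.22 FPKM in the 2 XEN lines against at least 325 FPKM elsewhere. The summed level of 20 fibroblast genes, listed as markers of feeder cells, ranged from 350.3 FPKM at day 6 to 3813 FPKM at 49 h. It was 1521 FPKM in R1 ESC, 3255 FPKM without dox, 1567 FPKM in Sox17-XEN and 698.2 FPKM in wild-type XEN, where 7 of the 20 reached 1 FPKM, Vim alone made up 665.4 FPKM and the collagen genes Col1a1 and Col1a2 were below 1 FPKM. All 20 reached 1 FPKM in Sox17-XEN. Whether the RNA of these genes came from feeders or from the cultured cells themselves was not tested. In a bulk sample, fewer cells of a type and less RNA per cell cannot be told apart.

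In comparisons of 2 libraries, the median of the 88 members is given on 2 scales. Counts at 7 to 49 h, and most values of single genes and of other gene lists, are given as deposited only. FPKM, the fragments per kilobase of transcript scaled to the mapped fragments of the library, was taken as deposited, and differences are of log2(FPKM + 1), which understates the change of genes near 0. Because a few abundant transcripts can shift every FPKM of a library, each comparison was repeated after median-ratio rescaling, with factors from 0.87 in R1 ESC to 1.27 in wild-type XEN. A difference between 2 single libraries has no replicate check and no p-value, and it was counted when it passed 1 log2 unit, a 2-fold difference in FPKM + 1. As a yardstick, the differences of the 88 genes between 7 h of dox and no dox had an SD of 0.15. This is a spread over genes in 1 pair of libraries and does not measure the spread between libraries. The table's own confidence intervals gave no help, because the lower bound was 0 in 815 of the 819 member values. All 819 carried the status OK.

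The upstream sequences of these genes are shown for 6 members on which later results turn, or which carry a motif tied to the family. Nuclear respiratory factor 1 (NRF1) and GABPA (also called NRF2) are the transcription factors best known for binding the promoters of this family. Windows from 250 bases before to 50 bases after the RefSeq start sites of GRCm38.p6 were searched on both strands, and 71 members matched a symbol of that table, with 76 windows. The NRF1 motif GCGCNTGCG was found in 32.9% of the member windows and in 6.31% of all 32851 windows. The GABPA motif CCGGAAGT was found in 6.58% against 3.89%, the ESRRA motif TCAAGGTCA in 2.63% against 0.423%, and the YY1 motif AAGATGGCG in 9.21% against 1.4%. Matches of different motifs did not overlap in the member windows, while NRF1 matches on the 2 strands can overlap each other, and a match is a description of the letters, not a bound site.

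The 6 stretches below run 5′ to 3′ towards the start site, lie within the 120 bases before it, and leave out bases that the GENCODE annotation of the same build places in an exon. Ndufaf4 and Ndufs5 are shown for an NRF1 match and Uqcr11 for a GABPA match, all 3 in capitals. Ndufaf2, Cox7a1 and Cox7b2 are shown because their levels stood apart between libraries, and these stretches hold none of the 4 motifs.
Ndufaf4: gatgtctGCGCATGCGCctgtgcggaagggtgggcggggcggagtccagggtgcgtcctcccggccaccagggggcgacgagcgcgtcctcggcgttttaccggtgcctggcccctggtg
Ndufs5: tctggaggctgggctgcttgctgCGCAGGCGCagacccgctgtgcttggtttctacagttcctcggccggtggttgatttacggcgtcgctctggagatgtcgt
Uqcr11: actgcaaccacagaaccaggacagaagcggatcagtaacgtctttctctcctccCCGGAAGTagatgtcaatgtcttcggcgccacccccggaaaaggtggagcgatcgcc
Ndufaf2: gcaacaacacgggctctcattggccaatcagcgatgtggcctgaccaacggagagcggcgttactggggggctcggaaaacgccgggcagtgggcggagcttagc
Cox7a1: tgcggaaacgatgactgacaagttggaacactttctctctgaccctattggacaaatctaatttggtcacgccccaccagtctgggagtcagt
Cox7b2: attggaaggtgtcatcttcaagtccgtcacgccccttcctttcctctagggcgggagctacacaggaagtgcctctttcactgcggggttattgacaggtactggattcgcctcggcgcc

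The Ndufaf4 stretch is chr4:24897963-24898082 on the plus strand. Those of Ndufs5, chr4:123718203-123718306 on the minus strand, and Uqcr11, chr10:80406831-80406941 on the minus strand, belong to the common set of small subunits made in most cells. The Ndufaf2 stretch is chr13:108158626-108158730 on the minus strand. The Cox7a1 and Cox7b2 stretches, chr7:30184051-30184143 on the plus strand and chr5:71548206-71548325 on the minus strand, belong to alternative isoform genes of complex IV. All coordinates in this paragraph are GRCm38.p6 and do not apply to the deposited table, which uses mm9.

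Across the 9 libraries the family as a whole was highest in the 2 wild-type lines. Its 91 genes summed to 13953 FPKM in R1 ESC (2.66% of all FPKM) and 13515 FPKM in wild-type XEN (2.27%). The 7 Sox17 libraries lay below both, from 1.8% in day 6 and in Sox17-XEN to 1.97% at 49 h, and no Sox17 library overlapped the wild-type ones. The highest of the 9 values of a gene, as deposited, was in R1 ESC for 37 members, in wild-type XEN for 36 and at day 6 for 13. The shares of all genes highest in each library were not counted, so these numbers have no background beside them. They also rest on the scale. After rescaling, 10 of the 88 tested members were higher in wild-type XEN than in R1 ESC and 77 were lower (6342 and 8468 over all genes). The spread was modest for most: the highest value was a median of 2.16 times the lowest.

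Levels within the family ranged widely, and FPKM, being per length, allows a rough comparison between genes. How far transcript length still affects these levels was not tested. The F1 subunit Atp5b was the most abundant member in every library, at 1034, 828, 765, 676, 717, 762, 762, 757 and 931 FPKM in R1 ESC, no dox, 7 h, 21 h, 35 h, 49 h, day 6, Sox17-XEN and wild-type XEN. Every list of 9 values that follows keeps this order. 24 members stayed above 100 FPKM in all libraries. Atp5s and most of the alternative isoforms sat at the other end.

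**Figure D1:**
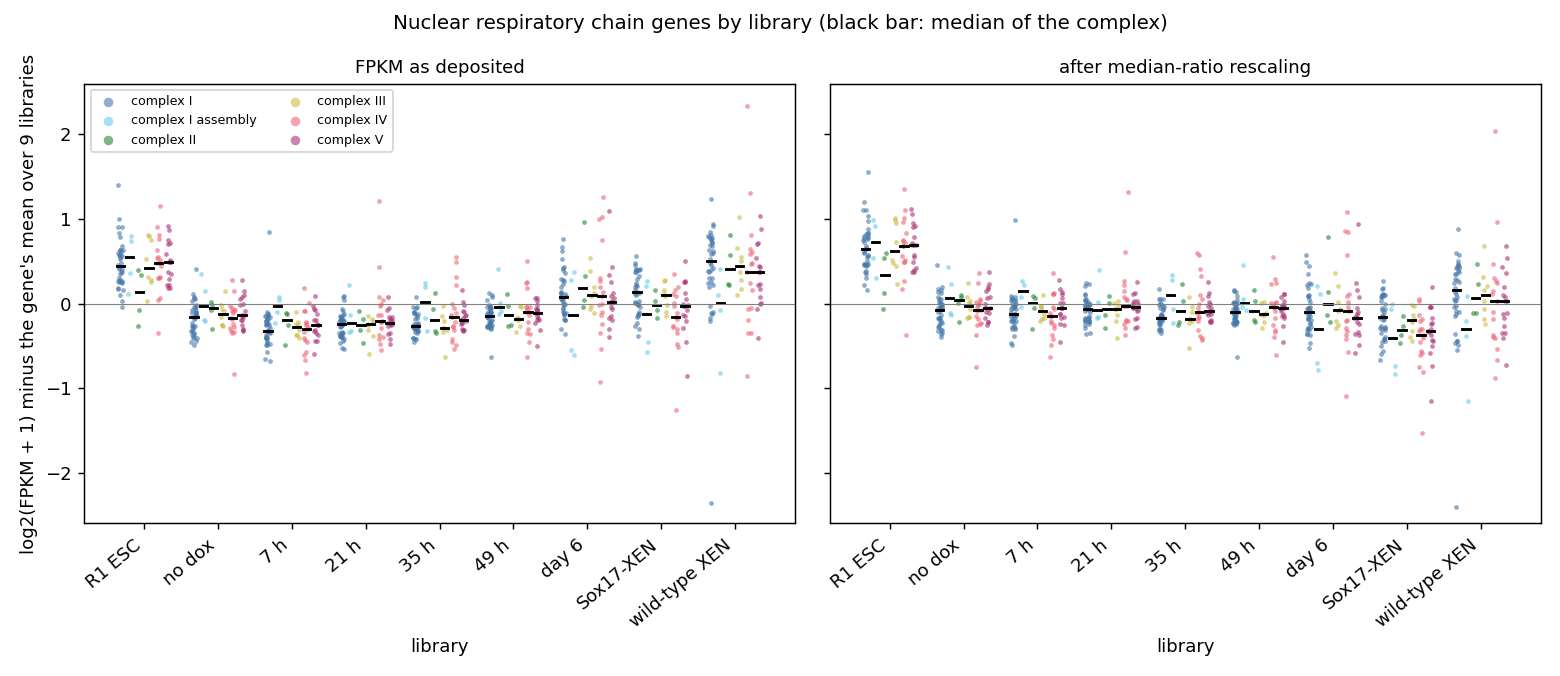
Each point is 1 member gene in 1 library, as log2(FPKM + 1) minus that gene's mean over the 9 libraries, coloured by complex, with a black bar at the median of each complex; the left panel uses FPKM as deposited and the right panel median-ratio rescaled FPKM. On the left, R1 ESC and wild-type XEN lie above the Sox17 libraries in most complexes, while on the right wild-type XEN drops towards the Sox17 libraries and R1 ESC stands highest.

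In wild-type XEN against R1 ESC, the comparison of the 2 established lines, the family differed little in either direction as deposited. Of the 88 genes, 42 were positive and 45 negative (8571 and 6239 over all genes). The median difference of the 88 was -0.05 log2 units, while the median of all 14974 genes compared was 0.21. After rescaling these medians became -0.60 and -0.18. The member median was below that of all genes on both scales, and the near-zero value of the family rests on the scale chosen. 2 members passed 1 log2 unit higher (25.7% of all genes did) and 5 lower (16% did). After rescaling, 1 was higher (15.3% of all genes) and 20 were lower (23.2%). The 2 higher genes as deposited were Cox7b2 and Ndufb8, and the 5 lower were Ndufa4l2, Ndufaf2, Cox7c, Cox4i2 and Ndufa7.

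In Sox17-XEN against no dox, the comparison of the converted line with its own start, 58 members were positive and 29 negative (8479 and 6339 over all genes). The family median was 0.19, against 0.17 over all 14984 genes. After rescaling the sign turned, to -0.17 for the members and -0.11 for all genes. Ndufa13 passed 1 log2 unit higher (20.6% of all genes did) and Atp5g1 lower (14.6% did). After rescaling 0 were higher (13% of all genes) and 3 lower (19.4%). Both of its libraries carry the transgene, and it shares no library with the wild-type comparison. 35 members were positive in both comparisons (46.9% of all genes), 22 negative in both (32.2%) and 30 opposite (19.3%), and none passed 1 log2 unit the same way in both (24.8%). At 0.5 log2 units, 1 member was higher in both (27.6% of all genes) and 5 were lower in both (18.5%).

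**Figure D2:**
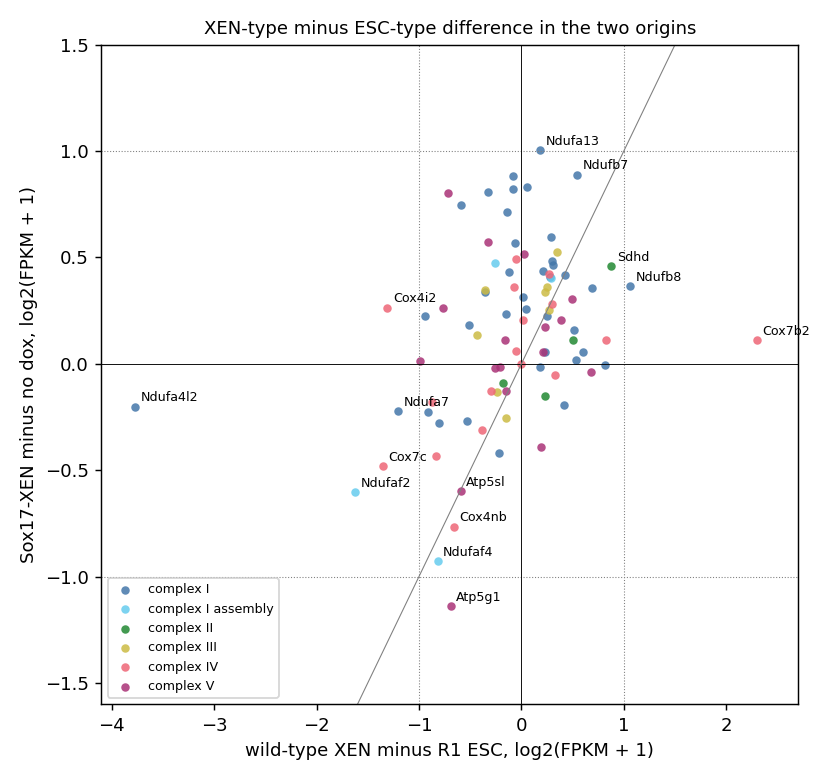
Each point is 1 of the 88 member genes, with wild-type XEN minus R1 ESC on the x axis and Sox17-XEN minus no dox on the y axis, both as log2(FPKM + 1); dotted lines mark 1 log2 unit and the grey diagonal equal differences. Most genes lie within 1 unit on both axes, Ndufa4l2 and Cox7b2 stand far out on the x axis only, and Ndufaf2, Ndufaf4, Cox4nb, Atp5sl and Atp5g1 are on the negative side of both.

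The core subunits of complex I between them carry its flavin and iron-sulfur centres. Ndufs1, the largest of them, was at 42.1, 42.9, 38.99, 37.9, 39.7, 42.1, 37.7, 42.7 and 74.9 FPKM. Ndufv1, which binds NADH, was at 80.8, 68.6, 60.8, 49.7, 52.2, 55.3, 69.9, 59.9 and 108 FPKM. In both genes wild-type XEN stood above the other 8 libraries as deposited. After rescaling this held for Ndufs1 but not for Ndufv1, where R1 ESC lay above wild-type XEN. Wild-type XEN minus R1 ESC was 0.82 and 0.41, and Sox17-XEN minus no dox was -0.01 and -0.19.

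Ndufs3, Ndufs7, Ndufs8 and Ndufv2 were less alike. Ndufs3 was at 61.05, 47.01, 45.4, 44.5, 44.6, 48.00, 65.6, 63.96 and 71.05 FPKM. Ndufs7, which holds the iron-sulfur centre next to quinone, was at 88.2, 57.3, 56.2, 47.3, 51.5, 57.04, 110.2, 76.2 and 107 FPKM. Ndufs8, which holds a pair of iron-sulfur centres, was at 34.9, 23.6, 20.4, 22.6, 25.2, 26.7, 22.7, 23.3 and 39.8 FPKM. As deposited, Ndufs7 was highest at day 6 with wild-type XEN next, whereas Ndufs8 was highest in wild-type XEN with R1 ESC next. After rescaling R1 ESC was highest for both. Ndufv2, the partner of Ndufv1 in the NADH module, was at 76.3, 54.7, 51.8, 52.1, 55.5, 55.3, 58.9, 62.2 and 53.3 FPKM, highest in R1 ESC and at like levels in all others.

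Among the accessory subunits of complex I the 2 comparisons ranked the genes differently. Ndufb7 had the highest mean difference of the XEN-type from the ESC-type libraries among the complex I members, at 68.9, 40.5, 42.9, 47.8, 46.7, 49.9, 62.9, 75.8 and 101 FPKM. Both XEN lines lay above both ESC libraries as deposited. After rescaling, Sox17-XEN lay below R1 ESC and wild-type XEN was about level with R1 ESC. As deposited, the difference was 0.54 in the wild-type and 0.89 in the Sox17 comparison, and limma's moderated test over the 4 libraries gave 0.72 (SE 0.35, adjusted p = 0.201). Ndufa13, also known as Grim19, was at 49.8, 30.1, 25.8, 36.7, 34.02, 36.5, 55.8, 61.4 and 56.7 FPKM, with Sox17-XEN highest and 7 h lowest as deposited. Ndufb8 was at 126, 86.1, 82.98, 83.1, 82.9, 91.1, 162, 111 and 263 FPKM, with wild-type XEN standing alone at the top. Ndufa7 showed the reverse, at 282, 133, 121, 134, 135, 131, 139.8, 114 and 122 FPKM, with R1 ESC alone at the top. These last 3 were picked out after their values were seen, and Ndufa13 and Ndufb8 share their locus with other rows of the table.

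The complex I assembly factors, which help build the complex and are not kept in it, split in pairs. Ndufaf2, which stands in for Ndufa12 during assembly (chr13:108842784-108948819 in mm9), was at 51.9, 32.7, 31.00, 34.4, 34.9, 39.4, 18.9, 21.2 and 16.2 FPKM. Ndufaf4 (chr4:24825230-24832148 in mm9) was at 15.6, 11.7, 9.25, 8.03, 10.4, 8.996, 5.81, 5.68 and 8.41 FPKM. In both genes day 6, Sox17-XEN and wild-type XEN, the 3 libraries with the highest Gata4, lay at or near the bottom. For Ndufaf2 they lay below all 6 others, while for Ndufaf4 wild-type XEN lay between the values at 21 h and 49 h. Unlike the XEN lines, day 6 kept Pou5f1, at 325 FPKM. Ndufaf2 was -1.62 in wild-type XEN against R1 ESC, -0.60 in Sox17-XEN against no dox and -0.76 at day 6 against no dox. Ndufaf4, chosen after its values were seen, was -0.82, -0.93 and -0.90. Limma's moderated test over the 4 lines gave Ndufaf2 -1.11 (SE 0.32, adjusted p = 0.0789) and Ndufaf4 -0.87 (SE 0.34, adjusted p = 0.137), neither past the threshold of 0.05.

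The other pair of assembly factors did not share this order. Ndufaf1 was at 10.5, 8.25, 8.09, 7.46, 8.48, 9.01, 11.9, 11.2 and 13.1 FPKM, highest in wild-type XEN as deposited. Ndufaf3 was at 10.3, 6.62, 7.22, 6.01, 6.07, 7.11, 10.4, 9.59 and 8.46 FPKM, with R1 ESC and day 6 nearly equal at the top as deposited. For Ndufaf1 the difference was 0.29 and 0.40 in the 2 comparisons as deposited, and its mean turned to -0.08 after rescaling. The list of assembly factors for all complexes, which holds 25 measured genes besides the members, had 2 higher (25.7% of all genes) and 0 lower (16%) past 1 log2 unit in wild-type XEN against R1 ESC. The 2 were Cox15 (2.35), which makes the haem of complex IV, and Taco1 (1.41), a translational activator of a mitochondrial complex IV subunit. In Sox17-XEN against no dox neither direction had any past 1 among 26 (20.6% of all genes were higher and 14.6% lower).

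Complex II, which is also the succinate dehydrogenase of the citric acid cycle, has only nuclear subunits. The flavoprotein Sdha was at 67.00, 76.5, 74.7, 75.9, 88.2, 87.6, 83.3, 82.8 and 95.2 FPKM. The iron-sulfur protein Sdhb was at 77.1, 58.7, 48.6, 51.1, 55.4, 57.1, 56.5, 55.1 and 68.03 FPKM. As deposited, Sdha was lowest in R1 ESC and highest in wild-type XEN, whereas Sdhb was highest in R1 ESC. After rescaling, Sdha was lowest in Sox17-XEN and lower in wild-type XEN than in R1 ESC. Of the 2 membrane anchors, Sdhc was at 72.2, 56.1, 52.00, 45.4, 44.3, 47.7, 71.2, 50.4 and 85.2 FPKM and Sdhd at 72.3, 61.4, 53.8, 54.7, 60.6, 63.1, 149.6, 84.8 and 134 FPKM. Sdhd stood out at day 6, where it was 1.27 above no dox, and in wild-type XEN, while its partner Sdhc was 0.34 at day 6. Limma gave Sdhd 0.67 over the 4 lines (SE 0.30, adjusted p = 0.176). The median of the 4 genes was 0.37 in wild-type XEN against R1 ESC and 0.01 in Sox17-XEN against no dox, and after rescaling both turned negative, to -0.17 and -0.37.

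No complex III gene passed 1 log2 unit in any comparison of 2 libraries as deposited. The hinge protein Uqcrh had the highest mean XEN-type minus ESC-type difference of the complex, at 215, 144, 129.9, 149, 136, 153, 187, 208 and 273 FPKM. The core protein Uqcrc1 had the lowest, at 141, 132, 110.3, 89.9, 96.7, 105, 172, 110.2 and 127 FPKM, with day 6 highest and 21 h lowest as deposited. The differences of Uqcrh were 0.34 and 0.53 in the wild-type and Sox17 comparisons, and those of Uqcrc1 -0.15 and -0.25. After rescaling the mean of Uqcrh turned to -0.03. All 8 complex III genes were lower without dox than in R1 ESC, and all 8 were lower in Sox17-XEN than in wild-type XEN, among them the small subunit Uqcr11 at 275, 141, 132, 132, 128, 137, 153, 154 and 203 FPKM.

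In complex IV the 7 usual isoforms made up most of the RNA. Cox4i1 was at 641, 412, 436, 550.3, 606, 593, 474, 429 and 618 FPKM, Cox6a1 at 349, 267, 183, 201, 194, 228, 473, 359 and 421 FPKM and Cox6b1 at 376, 209, 192, 225, 211, 246, 316, 294 and 362 FPKM. Cox6a1 was highest at day 6 and lowest at 7 h, and Cox4i1 was the only one of these 3 with values at 35 h and 49 h close to those of the wild-type lines. Cox4i1 shares a merged locus of 160 rows with Cox4nb, so reads of the 2 may not be fully told apart. Cox8a was at 351, 232, 168, 171, 178, 195, 309, 251 and 623 FPKM, with wild-type XEN alone at the top.

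The remaining usual isoforms differed in where wild-type XEN lay. Cox7a2 was at 115, 62.5, 59.6, 63.6, 61.4, 63.5, 73.3, 72.3 and 116 FPKM. Cox7b was at 144, 76.3, 69.2, 70.3, 78.4, 79.01, 89.6, 67.4 and 78.5 FPKM. Ndufa4 was at 367, 193, 182, 216, 199, 216, 239.9, 226 and 438 FPKM. R1 ESC and wild-type XEN were the 2 highest libraries for Cox7a2 and Ndufa4, whereas for Cox7b wild-type XEN lay among the Sox17 libraries. Cox7c, a small subunit with no alternative isoform in the list, was at 536, 235, 226, 235, 223, 228, 224, 168 and 209.7 FPKM. It was -1.19 without dox against R1 ESC and -1.35 in wild-type XEN against R1 ESC, so that R1 ESC stood alone at the top. Cox7c shares its locus with 1 other row.

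The alternative isoforms of complex IV each had a pattern of their own. Cox7a1, the form best known from heart and skeletal muscle (chr7:30969190-30971047 in mm9), was at 47.4, 15.02, 16.8, 28.3, 39.1, 39.3, 57.04, 10.9 and 26.1 FPKM. Its share of the Cox7a1 and Cox7a2 total was 19.4% without dox, then 22%, 30.8%, 38.9% and 38.2% through the 4 times up to 49 h and 43.8% at day 6, and it was 13.1% in Sox17-XEN, 18.4% in wild-type XEN and 29.2% in R1 ESC. The libraries with dox thus spanned a wide range, and the converted line had the lowest value of all 9. Over the 6 libraries of the course, limma gave a slope of 0.38 log2 units per step of time (SE 0.04, adjusted p = 0.0801), which did not pass 0.05.

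Cox7b2, a form known from testis (chr5:71834063-71939444 in mm9), was at 1.103, 0.66, 1.05, 0.66, 0.49, 0.31, 0.40, 0.80 and 9.33 FPKM. Wild-type XEN stood alone, with 10.6% of the Cox7b2 and Cox7b total against at most 1.49% elsewhere. Sox17-XEN, at 1.17%, did not share this. With Sox17-XEN left out of the 4 lines, limma called Cox7b2 higher in wild-type XEN than in the 2 ESC libraries (2.47, SE 0.32, adjusted p = 0.042), whereas over all 4 its adjusted p was 0.379. The single XEN library of that fit is assumed to vary like the ESC ones.

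Ndufa4l2, a paralogue of Ndufa4 known as a target of the hypoxia response (chr10:126951995-126959491 in mm9), was at 12.9, 5.99, 8.46, 4.58, 3.88, 2.39, 4.74, 5.08 and 0.021 FPKM. It was near 0 in wild-type XEN and above 2 FPKM in the other 8, and its locus is shared with 1 other row. Limma over the 4 lines gave -1.98 (SE 1.01, adjusted p = 0.22), with the 2 comparisons at -3.77 and -0.20. Cox4i2, the lung form, also regulated by oxygen, was at 1.55, 0.78, 0.61, 0.87, 0.70, 0.47, 2.73, 1.13 and 0.03 FPKM, again lowest in wild-type XEN and highest at day 6. Epas1, a hypoxia-inducible factor, was at 6.71, 12.3, 6.22, 4.98, 4.46, 4.66, 9.28, 147 and 140.3 FPKM, with both XEN lines above the other 7 libraries.

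Cox6b2, a form of the testis, was at 41.6, 22.97, 15.4, 20.8, 20.7, 20.2, 68.4, 29.8 and 39.5 FPKM. Its share of the Cox6b2 and Cox6b1 total was 17.8% at day 6 and between 7.44% and 9.97% in the other 8 libraries. Cox8b, the muscle form, was at 0, 0, 0.05, 1.96, 0.86, 0.51, 0, 0 and 0 FPKM, so it was detected in the 4 libraries from 7 h to 49 h and listed at 0 in the other 5. Cox8c was at 0.49, 0.32, 0.30, 0.32, 0.12, 0.077, 0, 0 and 0 FPKM, below 1 throughout and listed at 0 in day 6 and both XEN lines. Cox6a2, the muscle form, stayed at or below 0.17 FPKM. As deposited, day 6 was thus the highest library for Cox7a1, Cox6b2 and Cox4i2, and the sum of the 20 fibroblast genes was lowest at day 6. In wild-type XEN that sum was 698.2 FPKM, with 665.4 FPKM from Vim alone. Col1a1 and Col1a2 were lower in wild-type XEN (0.49 and 0.51 FPKM) than at day 6 (62.7 and 42.7 FPKM).

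**Figure D3:**
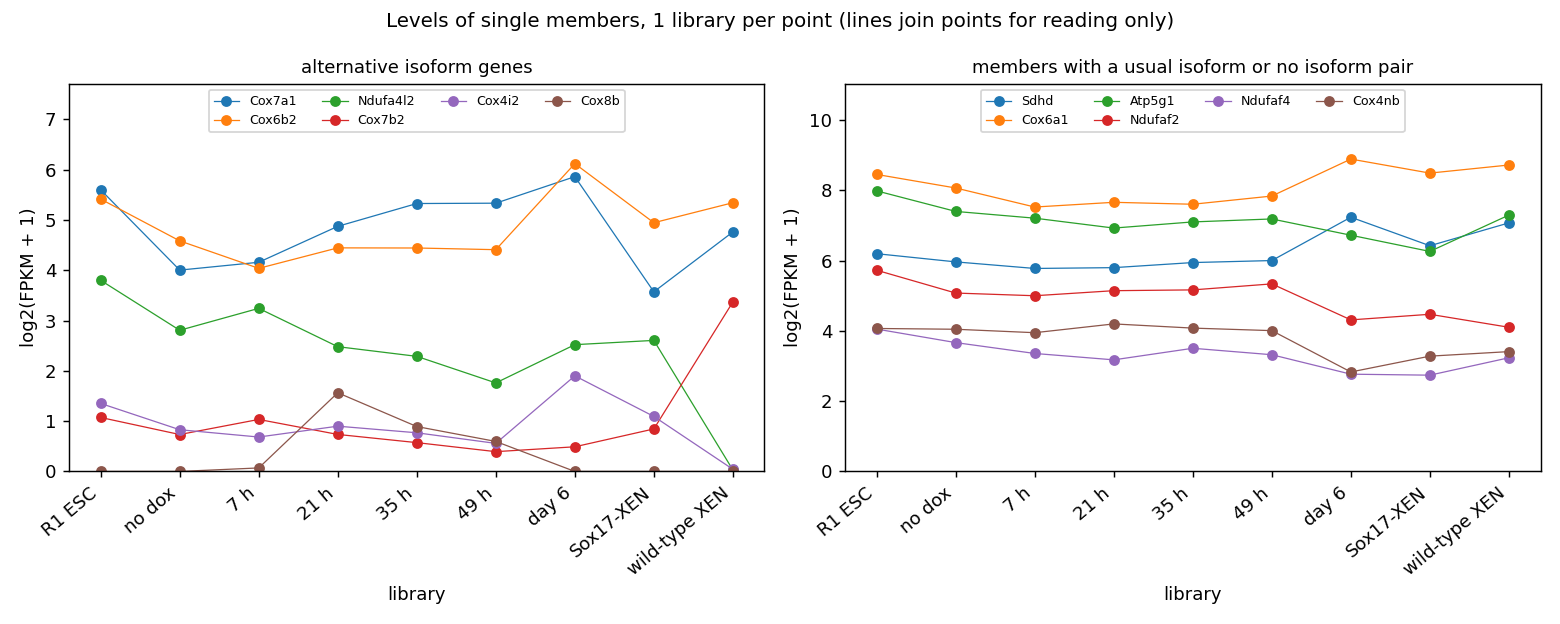
Each point is the log2(FPKM + 1) of 1 gene in 1 library, with lines joining the points of a gene for reading only; the left panel shows 6 alternative isoform genes and the right panel 6 other members. Cox7a1 lies higher at later times up to day 6 and is lowest in Sox17-XEN, Cox7b2 is high in wild-type XEN alone, and Ndufa4l2 is near 0 there. Ndufaf2 and Cox4nb are low at day 6 and in both XEN lines. Ndufaf4 is lowest at day 6 and in Sox17-XEN, while its wild-type XEN value lies above that at 21 h.

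The F1 head of complex V is built from 5 kinds of subunit. The catalytic subunit Atp5b has been given above, and its partner Atp5a1 was at 446, 423, 386, 353, 370.2, 366, 398, 322 and 510.2 FPKM. The stalk subunits were Atp5c1 at 213, 152, 146, 165, 176, 182, 208, 151 and 184 FPKM and Atp5d at 122, 111, 76.6, 75.1, 83.2, 92.7, 141, 125 and 143 FPKM. The smallest of the 5, Atp5e, was at 340.1, 167, 152, 176, 176, 187, 226, 292 and 207 FPKM. Sox17-XEN minus no dox was 0.80 for Atp5e, against -0.39 for Atp5a1 and -0.13 for Atp5b. Wild-type XEN minus R1 ESC was -0.72 for Atp5e, 0.20 for Atp5a1 and -0.15 for Atp5b. The median of the 5 was -0.15 in wild-type XEN against R1 ESC and -0.01 in Sox17-XEN against no dox.

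The 3 genes for subunit c encode the same mature protein and differ in their import signal, so their shares can be set side by side. Atp5g1 (chr11:95930166-95936984 in mm9) was at 252, 168, 147, 121, 136, 145, 105, 75.7 and 156 FPKM. Atp5g2 was at 424, 248, 229.9, 262, 255, 239, 305, 356 and 431 FPKM and Atp5g3 at 423, 255, 236, 219, 244, 267, 294, 276 and 379 FPKM. Atp5g1 made up 23% of the subunit c total in R1 ESC and between 20.1% and 25% from no dox to 49 h, and 14.9% at day 6, 10.7% in Sox17-XEN and 16.2% in wild-type XEN. Day 6 and both XEN lines thus lay below the 6 others without overlap. Atp5g2 had 50.3% of the total in Sox17-XEN against 37% without dox. Limma over the 4 lines gave Atp5g1 -0.91 (SE 0.46, adjusted p = 0.214), and a share was not tested.

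Atp5s was the complex V row with the highest mean XEN-type minus ESC-type difference, at 4.17, 2.54, 1.93, 2.32, 2.94, 2.13, 8.47, 3.38 and 6.27 FPKM, and it was highest at day 6. Its differences were 0.49 and 0.31 in the wild-type and Sox17 comparisons. The related Atp5sl was at 22.3, 21.7, 18.6, 20.7, 21.96, 20.01, 25.1, 14.01 and 14.5 FPKM, with Sox17-XEN and wild-type XEN lowest. Cox4nb was at 15.8, 15.5, 14.4, 17.4, 15.9, 15.1, 6.11, 8.72 and 9.63 FPKM, with day 6 and both XEN lines below the other 6. Neither gene is a core subunit, and both were picked out after their values were seen.

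Limma's moderated test of the 2 XEN-type lines against the 2 ESC-type lines called 1729 genes higher (11.6% of the 14925 tested) and 1476 lower (9.89%), at a Benjamini-Hochberg adjusted p under 0.05, and 0 of the 88 members in either direction. These counts rest on both ESC libraries: without R1 ESC limma called 0 genes higher and 0 lower (1599 and 1973 at an unadjusted p under 0.05), and without no dox also 0 and 0 (2221 and 1983 unadjusted). After median-ratio rescaling of all 4 libraries it called 930 genes higher and 1940 lower. At an unadjusted p under 0.05 it had 0 members higher (24.1% of all genes) and 3 lower (16.8%): Ndufaf2, Cox4nb (-0.71, SE 0.24, adjusted p = 0.106) and Atp5sl (-0.59, SE 0.20, adjusted p = 0.111). After median-ratio rescaling 2 members were called lower, Atp5sl (adjusted p = 0.0429) and Cox4nb (adjusted p = 0.0456), and upper-quartile rescaling added Ndufaf2 (adjusted p = 0.0471). The median of the members was 0.14 (0.21 over all genes) and turned to -0.31 (-0.14 over all genes) after median-ratio rescaling. It was -0.17 without the no dox library and -0.06 without wild-type XEN. In simulated data of the same size, 42 of 100 genes changed by 1 log2 unit were called and 100 of 100 changed by 3. Every simulated gene had the same noise (SD 0.30) and few were changed. The rates therefore do not carry over to the members. Each line is 1 library, and nothing in the labels says that cultures were repeated.

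Members also differed between lines of the same cell state and different origin. Without dox, 87 of the 91 genes were lower than in R1 ESC, although both are ESC with no induced Sox17. Among the 88 compared it was 85, and among all 14987 genes it was 6240. The median difference of the 88 was -0.60, against 0.07 over all 14987 genes, and it was -0.71 after rescaling, against 0.00013. 8 members were lower past 1 log2 unit (1.83% of all genes) and 0 higher (3.54%). The 8 were Cox7a1 (-1.595), Cox7c (-1.19), Ndufa1 (-1.14), Ndufc1 (-1.14), Cox6c (-1.09), Ndufa7 (-1.08), Atp5e (-1.02) and Atp5k (-1.01). After rescaling 17 were lower (2.64% of all genes) and 0 higher (2.9%).

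The 6 groups of genes all had negative medians: -0.71 for complex I, -0.48 for its assembly factors, -0.30 for complex II, -0.68 for complex III, -0.59 for complex IV and -0.58 for complex V. Only Sdha (0.19), Ndufs1 (0.03) and Cox6a2, which was not tested, were higher without dox, and Cox8b was listed at 0 in both. The mitochondrially encoded subunits were on the other side: 10 of 12 measured were higher past 1 log2 unit and 0 lower, with a median of 1.63 (3.54% of all genes were higher). The other mitochondrial lists, none of which holds a member, had medians of -0.46 for protein import, -0.25 for coenzyme Q synthesis, -0.25 for ATP transport and uncoupling, -0.19 for electron carriers, -0.09 for assembly factors, -0.00051 for the citric acid cycle and 0.28 for the regulators. The import list was thus below the complex II median.

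The XEN pair gave the same sign. In Sox17-XEN, 72 of the 91 genes were lower than in wild-type XEN, and 6935 of all 14979 genes were. The median of the 88 was -0.31 (0.02 over all genes), and -0.26 after rescaling (0.04 over all genes). After rescaling 6 were lower past 1 log2 unit (5.79% of all genes) and 1 higher (8.49%), and as deposited 7 members were lower (6.76% of all genes) and 2 higher (9.09%). The lower ones were Cox7b2 (-2.52), Cox8a (-1.31), Ndufb8 (-1.24), Cox7a1 (-1.19), Atp5o (-1.16), Ndufb4 (-1.07) and Atp5g1 (-1.03). The higher ones were Ndufa4l2 (2.57) and Cox4i2 (1.05). Of the 88, 70 were lower in the Sox17 line in both states (22% of all genes) and 0 were higher in both (32.6%), and the 2 comparisons share no library.

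A test of this difference, the 2 Sox17-line libraries against the 2 wild-type ones with a term for cell state, was added after the data were seen. Limma called 0 of 14925 genes, and 0 members, at an adjusted p under 0.05. At an unadjusted p under 0.05 it had 16 members lower (1.39% of all genes) and 0 higher (3.53%). The median of the members was -0.50 (0.04 over all genes), and 85 of the 88 estimates were negative. The signs over all genes were not counted for this test. The largest by p was Cox7a1 (-1.39, SE 0.25, adjusted p = 0.734), followed by Ndufb4 (-0.97, SE 0.21), a membrane-arm subunit of complex I, and Uqcrq (-0.85, SE 0.21), a small subunit of complex III. Origin is here the same as the identity of the cell line and its library, and these cannot be told apart.

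Transcript length moved with the difference between the 2 ESC libraries. Members are short, and over the 88 Spearman's rho between the length of the principal transcript and the no dox minus R1 ESC difference was 0.60, as a description across genes of the same 2 libraries. Below 600 nucleotides the median was -0.83 for 24 members and -0.60 for 168 other genes. From 600 to 1000 it was -0.70 (29 members) and -0.44, from 1000 to 2000 it was -0.38 (24 members) and -0.16, and from 2000 on it was -0.36 (11 members) and 0.22. Within each range the members were below the other genes, and the other genes were also lower in the shorter ranges. In the XEN pair rho was -0.05, the medians of the members were -0.25, -0.48, -0.22 and -0.65 in the 4 ranges, and those of the other genes lay between -0.04 and 0.05. The summed fibroblast genes were also higher in the Sox17 library of each pair. The part of length or of feeder RNA in the difference was not tested.

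**Figure D4:**
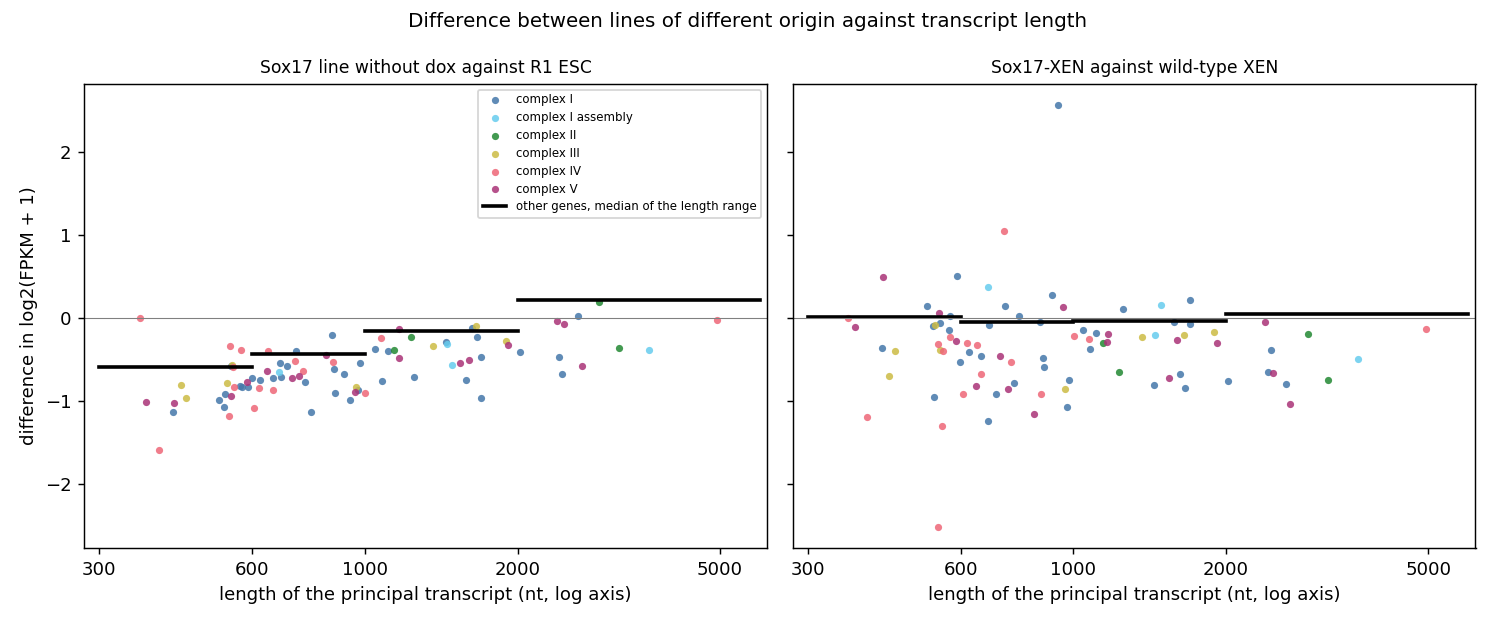
Each point is 1 of the member genes, with the length of its principal transcript in nucleotides on a log axis and its difference in log2(FPKM + 1) on the y axis, for no dox minus R1 ESC (left) and Sox17-XEN minus wild-type XEN (right); black bars are the median of all other genes in 4 length ranges. On the left members and other genes both sit lower at short lengths (rho 0.60 over the members), and on the right the bars are level and most members lie below them.

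Through the first 49 hours of dox the family stayed near its starting level. The median differences from no dox at the 4 times were -0.13, -0.07, -0.06 and 0.02 for the members, against -0.10, -0.06, -0.01 and 0.03 over all genes. After rescaling these medians were -0.03, 0.02, -0.04 and -0.02 for the members, and -0.01, 0.005, -0.004 and 0.0007 over all genes. The 5 comparisons of the course share the no dox library. No member passed 1 log2 unit at 7 h, where 1.17% of all genes were higher and 1.87% lower. At 21 h Cox8b was higher (3.12% of all genes) and none lower (1.96%). Cox8b entered the comparisons only through this 21 h value, so its place here was set by the filter. At 35 h Cox7a1 was higher (2.6%) and none lower (2.02%). At 49 h Cox7a1 was higher (3.26%) and Ndufa4l2 lower (2.29%).

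At day 6 the members spread more widely. The median was 0.22 (0.10 over all 14992 genes), and it turned to -0.04 (-0.09 over all genes) after rescaling. 7 members were higher past 1 log2 unit (17.6% of all genes) and 1 lower (12.7%). The 7 were Cox7a1 (1.86), Cox6b2 (1.53), Atp5s (1.42), Sdhd (1.27), Ndufa6 (1.11), Cox4i2 (1.07) and Ndufb11 (1.03), and the lower one was Cox4nb (-1.22). After rescaling 3 were higher (13.1% of all genes) and 3 lower (16.5%). The fibroblast sum was 3813 FPKM at 49 h and 350.3 FPKM at day 6, and the day 6 label is the one with SORT. The part of either in these values was not tested.

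Over the 6 libraries of the course limma called 0 of 14933 genes for a slope on the rank of time, members included. At an unadjusted p under 0.05 it had 15 members upward (16.4% of all genes) and 0 downward (8.74%). The upward count is near the share of all genes, and without day 6 the counts were 7 upward and 1 downward. The median slope was 0.048 per step, -0.005 after rescaling and 0.008 without day 6. The slope of Cox7a1 without day 6 was 0.38 (adjusted p = 0.123). With hours in place of ranks, 26 members were called upward and 2 downward, among 4307 and 2033 genes in all, and that scale gives the day 6 library most of the weight. 14 of the 88 had a range of at least 1 log2 unit over the course, against 43.8% of all 14933 genes, and the number was 13 without Cox8b, whose range rests on the 21 h value that let it into the comparisons. The ranges were led by Cox6b2 (2.08), Cox7a1 (1.86), Atp5s (1.69), Cox8b (1.56) and Ndufa4l2 (1.48), and the median range was 0.52, against 0.89 over all genes.

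Genes that feed or serve the chain were counted from lists that hold no member, and each count is to be read against the share of all genes past 1 log2 unit in the same comparison. In wild-type XEN against R1 ESC, 5 of 18 citric acid cycle genes were higher past 1 log2 unit and 0 lower, where 25.7% of all genes were higher and 16% lower. The 5 included Dlst (1.49), Idh2 (1.34) and Dld (1.300). In Sox17-XEN against no dox 2 of 18 were higher and 0 lower, where 20.6% of all genes were higher and 14.6% lower, with Idh2 at 1.87 and Dlst at 1.004. Their medians were 0.57 and 0.12, and 0.04 and -0.26 after rescaling. Mitochondrial import genes had 1 higher and 3 lower of 22 in the wild-type comparison and 0 higher and 4 lower of 23 in the Sox17 one. Chchd4, which folds imported proteins in the intermembrane space, was at 55.2, 40.1, 27.8, 22.98, 27.8, 27.5, 13.7, 10.9 and 26.5 FPKM, lowest in Sox17-XEN.

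The transcriptional regulators of mitochondria had 8 higher and 0 lower of 19 in wild-type XEN against R1 ESC, and 2 higher and 0 lower of 19 in Sox17-XEN against no dox (for all genes 25.7% higher and 16% lower in the first, 20.6% and 14.6% in the second). Besides Epas1 the rule named Creb1 (1.74 and 0.40) and Gabpb2 (1.18 and 1.23). The exchangers that carry ATP and ADP across the inner membrane differed in opposite directions. Slc25a4 was at 100.2, 102, 94.5, 101, 164, 201, 143, 215 and 337 FPKM and Slc25a5 at 546, 438, 383, 310.1, 335, 353, 157, 165 and 219 FPKM, so that both XEN lines were above the 2 uninduced ESC libraries for the first and below them for the second. Glycolysis genes had 5 higher and 2 lower of 19 in the wild-type comparison and 1 higher and 6 lower of 19 in the Sox17 one, beside the same shares of all genes.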

How the data were processed

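RNA-seq was made from 9 libraries, 1 per group, from total RNA extracted with Trizol and TruSeq RNA kits, per the labels' protocols. The authors deposited 1 table of FPKM values with confidence bounds and a status for each gene. TopHat2 2.0.11, Cufflinks 2.1.2, Cuffdiff and the genome build mm9 are named in the submitters' processing notes, while how reads with several matches were assigned is not given in the sources used here. The respiratory chain has many processed pseudogenes, so low values are uncertain. Read depth is unknown: an estimate from the steps of low values was matched by only 5.85% to 12.3% of them and was not used. Whole counts could not be recovered, so no count test was run.

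From the deposited FPKM, log2(FPKM + 1) was computed for the 15082 genes that reached 1 FPKM somewhere, of which those with a valid value in each library compared were tested. Limma 3.58.1 in R 4.3.3 gave 3 two-sided moderated tests with a mean trend and Benjamini-Hochberg adjustment over all genes tested: XEN-type against ESC-type lines (2 against 2), the slope on the rank of time (6 libraries), and Sox17 line against wild-type lines (added after the data were seen). All p-values rest on the spread of these single libraries around the fitted model, not on replicates. For the slope this is the distance from a straight line over ranks, so a curved course counts as spread. In the test of XEN-type against ESC-type lines it includes the difference between the Sox17 and wild-type lines. The tests were tested on simulated data. Alternatives were 2 rescalings, another pseudocount (0.1), other filters, no trend, minimum differences of 1 and 2 log2 units, hours for ranks, and each library left out. Transcript lengths came from the principal transcripts of GENCODE M21 and were found for 90 members, and promoter windows from RefSeq (GRCm38.p6).

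Members and gene lists were chosen with earlier results of these data known. Genes were named by rule: the 4 Sdh genes, core complex I subunits, F1 and subunit c genes, isoform pairs, the highest and lowest mean line difference in each complex, members past a threshold, and the 5 largest ranges over the course, with 3 genes at most from each other list. One item that the rule would name is not reported here. Of the members, 28 share a locus with another row.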

Additional observations from a re-analysis of the deposited data

How the results depend on the processing

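Each group has 1 library and no replicate numbers pair the samples, so depth and culture-to-culture spread are not measured, and rescaling was the choice that moved most results. No paired analysis by replicate number was possible because each group holds a single library. With a term for the origin of the line (wild-type or Sox17), added after the data were seen, the test of XEN-type against ESC-type lines called 1079 genes higher and 1120 lower, with 0 members, where it called 1729 and 1476 without the term. Its counts over all genes were 308 and 645 with no filter on low values, 1676 and 617 at a mean of at least 5 FPKM, 930 and 1940 with median-ratio and 880 and 2086 with upper-quartile rescaling, 148 and 167 against 1 log2 unit, and 6 and 7 against 2. Leaving out R1 ESC or no dox gave 0 and 0, leaving out Sox17-XEN 1305 and 1157, and leaving out wild-type XEN 1113 and 822. Median-ratio and upper-quartile rescaling gave a member median of -0.60 and -0.65 in wild-type XEN against R1 ESC, -0.043 and -0.14 at day 6 against no dox, -0.17 and -0.25 in Sox17-XEN against no dox, -0.31 and -0.37 in the test of XEN-type against ESC-type lines, and -0.0048 and -0.023 for the slope over the course. The line test then called 2 and 3 members lower. Leaving out each library in turn moved its median from -0.17 to 0.39, and the called higher count from 0 to 1. The median slope over the course ranged from 0.0079 to 0.078 when each library was left out. Hours in place of ranks called 26 members higher and 2 lower (4307 and 2033 of all genes), and Sox17-XEN as a seventh step called 5 higher (1282 higher and 727 lower of all genes), where ranks over 6 libraries called 0. In 118 other combinations of a main result and a setting, the median moved by less than the SD of 0.15 or the count stayed alike. That SD is a spread over genes and so a loose bound for a median. The medians of no dox against R1 ESC and of Sox17-XEN against wild-type XEN stayed negative on both rescalings.

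Among named genes, rescaling turned the line difference of Ndufaf1 to -0.083 (median-ratio) and -0.14 (upper-quartile), of Uqcrh to -0.033 and -0.095, and of Atp5s to -0.024 (upper-quartile). Leaving out each library in turn gave Sdhb from -0.33 (without no dox) to 0.061 (without R1 ESC), and Cox7b2 from -0.058 (without wild-type XEN) to 2.47 (without Sox17-XEN). The causes were not tested. No member passed 1 log2 unit in any comparison once the confidence intervals of the table also had to be apart. With a lower bound of 0 in 815 of the 819 member values, that outcome was all but set beforehand. Nothing about the members can be read from it.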
